A study of Mus musculus with 12 samples.

Results

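The clustered protocadherins are 58 mouse genes that lie side by side on chromosome 18 in an alpha group (Pcdha, 14 genes), a beta group (Pcdhb, 22 genes) and a gamma group (Pcdhg, 22 genes, counting the pseudogene Pcdhgb8). They were taken here as every CpG site of the methylation table inside chr18:36930001-37850000 of mm10, an interval of 920 kb that holds all 58 genes and, between Pcdhb and Pcdhg, Taf7 and Slc25a2. The interval held 11144 of the 21867550 CpG sites in the table, against 4982 sites in the 500 kb before it and 6297 in the 500 kb after it, which together served as flanks. By the RefSeq annotation of GRCm38.p6, Pcdha reached from 36930285 to 37188897 with 3220 sites, Pcdhb from 37264998 to 37521419 with 2803 sites, and Pcdhg from 37661775 to 37841873 with 3383 sites. Pcdhg was the densest of the 3, with 18.8 CpG sites per kb against 12.5 in Pcdha and 10.9 in Pcdhb.

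Clustered protocadherins are cell surface adhesion proteins through which neurons tell their own processes from those of other neurons. Each Pcdha and Pcdhg isoform starts from its own promoter and large variable first exon, which is spliced to constant exons shared by the whole group, while a Pcdhb gene is a single exon. A neuron turns on a small and largely random choice of these promoters, with the insulator protein CTCF and the cohesin complex looping a promoter to a distant enhancer, whereas the C-type isoforms Pcdhac1, Pcdhac2, Pcdhgc3, Pcdhgc4 and Pcdhgc5 follow their own rules. CpG methylation silences the promoters that are not chosen. In the early mouse embryo Dnmt3b is the enzyme known for placing it there, and the chromatin protein Smchd1 also acts on these clusters.

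The levels come from 12 lines of mouse embryonic stem cells that lack Dnmt1, Dnmt3a and Dnmt3b (TKO cells) and therefore have neither the maintenance enzyme nor the de novo enzymes of their own. TKO cells, grown in serum with leukemia inhibitory factor on gelatin, received a plasmid for 1 human enzyme and were selected in Zeocin at 50 µg/ml for 10 days and then kept at 25 µg/ml. There were 2 lines each with wild-type DNMT3A, wild-type DNMT3B set a, DNMT3B N656I, wild-type DNMT3B set b, DNMT3B K777A and DNMT3B N779A, where the set is the letter that the labels add to the wild-type replicate number. N656I replaces an asparagine of the catalytic loop of DNMT3B, and K777A and N779A replace residues of the domain that reads the DNA beside the CpG site. DNMT3A and N656I were compared with set a, and K777A and N779A with set b, and all 12 lines share the TKO background and the Zeocin selection. Cells that carry the empty plasmid were not analysed here, so the level without any enzyme was not subtracted. The amount of enzyme in each line was not measured in these data, and neither the knockout nor the stem cell identity can be checked from CpG methylation.

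A level is the share of bisulfite reads at CpG sites that were read as methylated, summed over all covered sites of a region. A read over several sites is counted at each of them. In such pooled cells, fewer methylated chromosomes and fewer methylated sites per chromosome cannot be told apart. The libraries held 16224222 to 36029921 reads at CpG sites, of which 7172 to 20077 fell in the interval. Of the 11144 sites, 3204 were covered in no line and 12 in all 12 lines, and no site had 10 reads in more than 5 lines, so single sites could not be compared between groups. One library stood apart. Wild-type DNMT3B set a replicate 2 covered 400 sites of the interval, whereas the other 11 lines covered 1599 to 5849. It carried 19.0 reads per covered site against 2.61 to 4.69 elsewhere, and its 10 deepest sites held 25.2% of its reads in the interval. Several results that rest on this line are therefore also given without it, but not all of them.

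The lines with DNMT3A held more methylation on the protocadherin clusters than those with any form of DNMT3B. Over the interval the DNMT3A lines had a level of 16.4% and 18.5%, with 95% Wilson intervals of 15.8 to 17.1% and 17.7 to 19.2% that cover counting error only. In wild-type DNMT3B set a it was 7.37% and 2.16%. In N656I it was 6.83% and 5.12%. In wild-type DNMT3B set b it was 8.03% and 7.12%. In K777A it was 3.73% and 3.45%. In N779A it was 5.32% and 5.93%. Both DNMT3A lines lay above the other 10 lines, and both K777A lines lay below every line except set a replicate 2.

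The mean over the DNMT3A lines was 17.4% ± 1.45 (SD, n = 2) against 4.76% ± 3.68 in set a, which is 3.66 times as high and a difference of 12.7 percentage points (exact permutation p = 0.333, two-sided). With 2 lines against 2, this is the smallest p that an exact test can reach. The difference was 10.1 points and the DNMT3A mean 2.37 times as high without set a replicate 2. K777A, at 3.59% ± 0.198, had 0.474 times the level of set b, at 7.57% ± 0.647, a difference of -3.98 points without overlap (exact permutation p = 0.333). That difference ran from -6.37 points at sites with at least 10 reads to -1.17 points against set a in place of set b (exact permutation p = 1.0). The latter value rests on set a replicate 2, at 2.16%, whereas set a replicate 1, at 7.37%, lay close to the set b mean. N779A, at 5.62% ± 0.431, lay 1.95 points under set b in level, also without overlap (difference -1.95, exact permutation p = 0.333). The N779A gap was not stable in direction, since it was 0.0868 points over the sites covered in all 4 lines. N656I, at 5.98% ± 1.21, overlapped set a (difference 1.22 points, exact permutation p = 1.0), and the difference was -1.39 points without set a replicate 2. The wild-type sets differed by -2.81 points, a minus b (exact permutation p = 0.667), and by -0.206 points without set a replicate 2.

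Much of this order was that of the whole genome. Over all sites the DNMT3A lines had a level of 34.1% and 35.4% and the K777A lines 6.18% and 7.49%, and the other 8 lines lay between 10.5% and 16.0%. To set the interval against the genome, windows of 920 kb laid so that the interval was 1 of them were compared in limma, on log2 odds (methylated over unmethylated reads), each line centred on its median window. The interval passed an adjusted p of 0.05 in none of the 5 comparisons, and the windows that passed were 0.0354% of 2821 for DNMT3A against set a, 0.0354% for K777A against set b and 0.0% for the other 3. DNMT3A minus set a was 0.77 ± 0.42 (log2 odds, SE, limma adjusted p = 0.374). K777A minus set b was -0.16 ± 0.42 (limma adjusted p = 0.890). Without set a replicate 2 the interval again passed in none of the 5, and the windows that passed were 0.0706% of 2833 for DNMT3A, 2.75% for K777A, 0.0353% for N779A and 0.0% for N656I and for the wild-type sets. DNMT3A minus set a was then -0.08 ± 0.23 (limma adjusted p = 0.942) and K777A minus set b -0.16 ± 0.19 (limma adjusted p = 0.620). Without centring the interval passed for DNMT3A, at 2.33 ± 0.33 (limma adjusted p = 7.64e-12), together with 99.6% of all windows, whose median was 1.59. Without set a replicate 2 it was 1.41 ± 0.36 (limma adjusted p = 8.69e-05), beside a median window of 1.50. It also passed for K777A, at -1.14 ± 0.33 (limma adjusted p = 0.000884), together with 95.3% of all windows, whose median was -0.98. Wild-type set a passed as lower than set b without centring, at -0.96 ± 0.33 (limma adjusted p = 0.0318), where 0.461% of windows passed as lower and 13.4% as higher. Without set a replicate 2 that value was -0.04 (limma adjusted p = 0.920).

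In every line the clusters were less methylated than the DNA on either side. The flanks had 28.8% ± 0.616 in DNMT3A, 12.9% ± 0.684 in set a, 9.87% ± 2.23 in N656I, 12.4% ± 0.681 in set b, 5.85% ± 0.284 in K777A and 9.22% ± 2.79 in N779A (SD, n = 2). The interval was lower than its flanks in 12 of 12 lines, by 5.67 points on average (difference -5.67 ± 3.52, SD over lines, from -12.8 to -1.92). The exact sign-flip permutation test over lines gave p = 0.000488, the smallest it can give with 12 lines. This test and the later sign-flip tests treat the lines as independent. The lines are, however, 6 groups of 2 from the same TKO cells. As a share of the flanks the interval stood at 56.1% and 65.1% in DNMT3A, 59.7% and 61.8% in N656I, 62.4% and 59.8% in set b, 66.1% and 57.1% in K777A, and 73.4% and 52.9% in N779A. In set a the shares were 55.2% and 17.4%, the latter in the library that stood apart. The enzyme groups other than set a therefore had mean shares of 60.6 to 63.1%, although their levels over the interval ran from 3.59% to 17.4%.

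**Figure D1:**
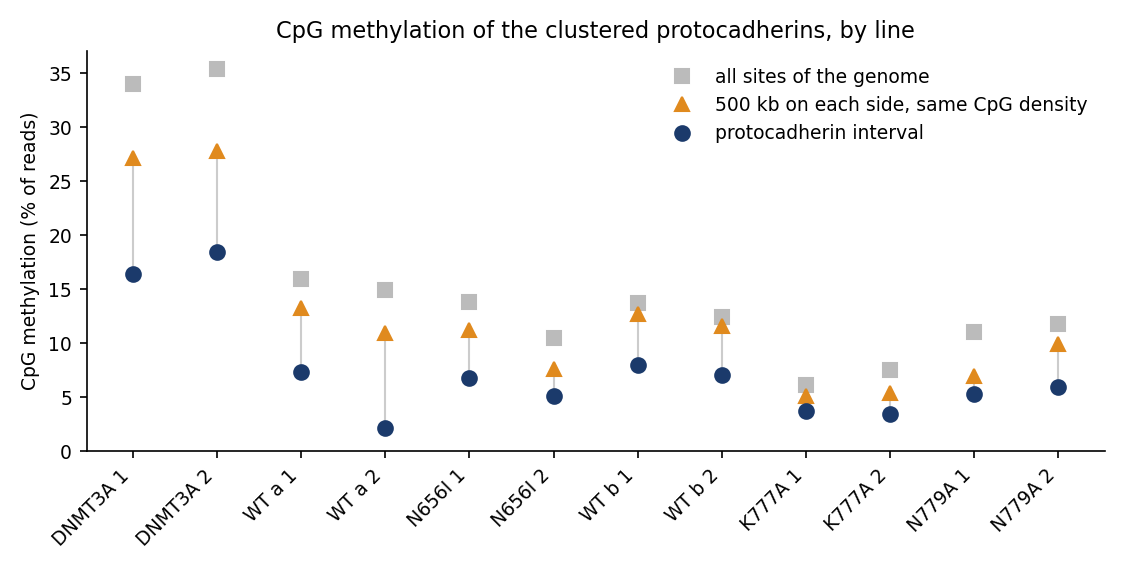
CpG methylation (percent of reads, y axis) of the protocadherin interval, of its flanks weighted to the CpG density of the interval, and of all sites of the genome in each of the 12 lines (x axis; WT is wild-type DNMT3B, a and b its sets). The interval lies under its flanks in all 12 lines, from 2.16% in set a replicate 2 to 18.5% in DNMT3A replicate 2.

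CpG density did not remove the gap. Sites were put in 4 classes by how many table sites lay within 100 bp on each side, the site itself included. Dense sites, with 12 or more, made up 22.1% of the interval, 11.9% of the flanks and 6.94% of the genome. With the flanks weighted to the density of the reads of the interval in each line, the interval was still lower in 12 of 12 lines (mean difference -5.00 points, SD 3.14, exact sign-flip permutation p = 0.000488). The sites covered in all 12 lines, which were 12 in the interval, gave -2.87 points unweighted (exact permutation p = 0.155).

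The gap lay in the sparse and middle classes. At sites with a count of 1 to 2, the mean over lines was 11.1% in the interval and 18.0% in the flanks. At 3 to 5 it was 10.5% against 16.7%. At 6 to 11 it was 5.19% against 10.9%. In each of these 3 classes the interval was lower in 12 of 12 lines (exact sign-flip permutation, adjusted p over the 4 classes = 0.000651). The dense class showed no such gap. There the interval had 2.44% and the flanks 1.87%, a difference of 0.561 points (SD 1.56), higher in 8 lines and lower in 4 (exact permutation p = 0.236). In the DNMT3A lines dense sites had 5.72% and 6.30% in the interval, 4.16% and 2.28% in the flanks, and 2.73% and 3.09% over the genome. Of the 2458 dense sites of the interval, 31.6% lay within 1 kb of a protocadherin start, 54.9% in the rest of the first exons and 13.5% elsewhere.

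**Figure D2:**
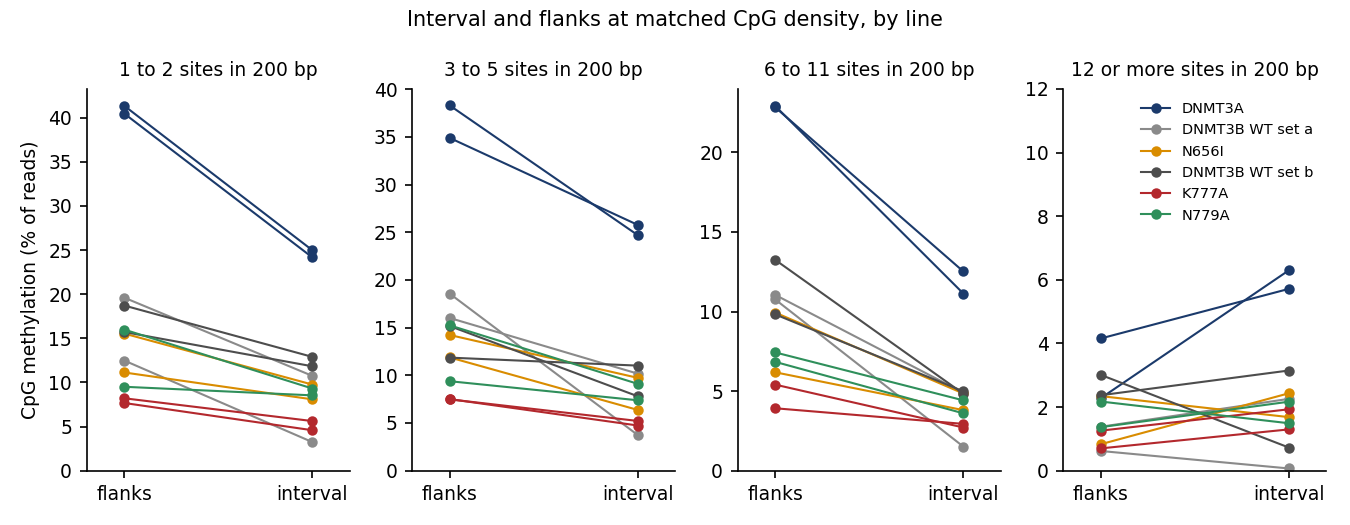
CpG methylation (percent of reads, y axis, scaled separately in each panel) of the flanks and the protocadherin interval in 4 classes of CpG density, the number of sites within 100 bp on each side. Each line joins the values of 1 of the 12 cell lines, and all 12 fall from flanks to interval in the first 3 classes, whereas at 12 or more sites 8 are higher in the interval.

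Site by site, only sites with at least 5 reads were counted, which were 272 to 1493 per line of the 400 to 5849 covered in the interval. Of the counted sites, 65.2% to 92.3% had no methylated read (median over lines 85.0%), against 46.2% to 82.3% in the flanks (median 76.2%), and the share was higher in the interval in 12 of 12 lines. Sites methylated in at least 50% of reads were 4.60% in the interval and 9.74% in the flanks (medians), and were fewer in the interval in 11 of 12 lines. The exception was N779A replicate 1, with 5.22% against 4.79%. These shares of sites were not matched for CpG density, and dense sites made up 22.1% of the interval but 11.9% of the flanks. Among 2595 autosomal windows of 920 kb with at least 1000 reads in every line, the interval ranked near the bottom. Between 1 and 83 windows were lower in a line, 0.0385% to 3.20% of them, with a median of 0.116%. The set b lines had most windows below the interval, 75 and 83. A single window, which starts at 39690001 on chromosome 17, was lower than the interval in all 12 lines. With every window weighted to the density of the interval, 0.0% to 2.79% of windows were lower.

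The methylation was not evenly spread along the clusters. Among the 40 tiles of 10 kb in the interval that had reads enough in every line, the highest mean over lines was 18.5%, at chr18:37180001-37190000, which covers the end of Pcdha with its constant exons. The DNMT3A lines had 59.2% and 66.9% there, and the other 10 lines 0.0% to 19.7%. The next tile was chr18:37780001-37790000, between Pcdhga12 and Pcdhgc3, with 48.2% and 44.4% in the DNMT3A lines, 1.75% to 22.0% in the others and a mean of 15.9%. The lowest was chr18:37210001-37220000, between Pcdha and Pcdhb, with a mean of 1.74% and no line above 5.21%. After it came chr18:37640001-37650000, which holds the start of Taf7, with a mean of 2.56% and no line above 6.17%. None of the 40 tiles passed an adjusted p of 0.05 in limma in any of the 5 comparisons, as was the case for all 105737 tiles tested (0.0%). At an unadjusted p under 0.05 there were 3, 3, 3, 4 and 10 tiles, in the order DNMT3A, N656I, K777A, N779A and the wild-type sets. Of all tiles 11.6%, 11.5%, 4.06%, 4.24% and 16.1% had such a p, in the same order. The median SE of a tile was 1.17 on the log2 odds scale.

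**Figure D3:**
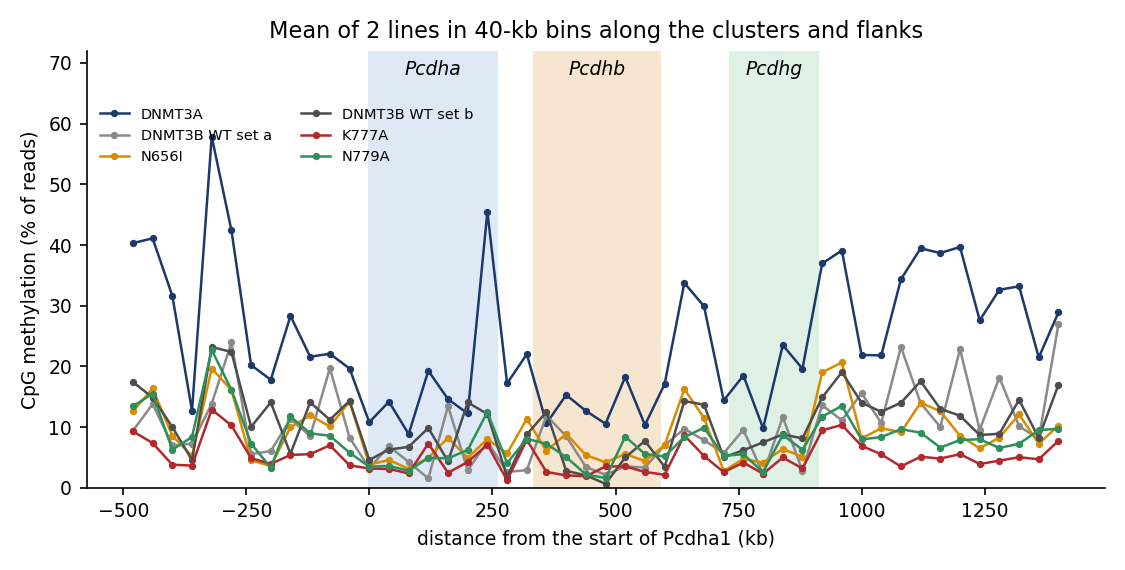
Mean CpG methylation of the 2 lines of each group (percent of reads, y axis) in bins of 40 kb along the clusters and flanks, by distance from the start of Pcdha1 (kb, x axis), with Pcdha, Pcdhb and Pcdhg shaded. DNMT3A lies above the other groups in most bins and, within the clusters, is highest at the end of Pcdha, while inside the shaded groups most DNMT3B bins lie near the interval means of 3.59 to 7.57%.

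By group of genes, Pcdha had 16.0% and 15.8% in the DNMT3A lines, 8.75% and 6.85% in set b and 3.83% and 3.40% in K777A. Pcdhb had 12.1% and 14.8% in DNMT3A, 6.50% and 5.07% in set b and 3.11% and 2.25% in K777A. Pcdhg had 16.9% and 18.4% in DNMT3A, 8.17% and 7.72% in set b and 3.55% and 3.45% in K777A. Pcdhb was thus the lowest of the 3 in each of these 6 lines. In N656I the values were 5.46% and 4.51% in Pcdha, 7.66% and 3.56% in Pcdhb and 5.98% and 4.51% in Pcdhg. In N779A they were 5.30% and 4.20% in Pcdha, 6.16% and 4.98% in Pcdhb and 4.71% and 6.48% in Pcdhg, so Pcdhb was above Pcdha in both N779A lines. In set a they were 7.08% and 2.92%, 6.61% and 0.906%, and 6.79% and 3.02%, in the same order.

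Over all 12 lines the groups of genes did not pass the test as they stood. Pcdhb lay 1.33 points under Pcdhg on average, lower in 10 of 12 lines (exact sign-flip permutation p = 0.0327, adjusted over 3 pairs 0.0981). Pcdha was 0.865 points above Pcdhb, higher in 9 of 12 lines (exact permutation, adjusted p = 0.133), and 0.468 points under Pcdhg in level, lower in 7 of 12 lines (difference -0.468, exact permutation, adjusted p = 0.166). The 3 groups differ in CpG density, with dense sites at 30.4% of Pcdha, 13.3% of Pcdhb and 27.8% of Pcdhg. Weighted to the same density, all 3 differences passed. Pcdhb was then 2.91 points under Pcdhg (difference -2.91, lower in 10 of 12 lines, exact permutation, adjusted p = 0.00293). Pcdha was 1.60 points under Pcdhg (difference -1.60, lower in 12 of 12 lines, exact permutation, adjusted p = 0.00146) and 1.31 points above Pcdhb (higher in 9 of 12 lines, exact permutation, adjusted p = 0.0190). Unweighted, Pcdha minus Pcdhg turned to 1.76 points at sites with at least 10 reads and to 0.440 points at sites covered in every line. Without set a replicate 2 the weighted differences were -3.09, -1.73 and 1.36 points.

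Within the groups of genes, the start windows were lower than the rest of the first exons and than the remaining sites. The constant exons, with 49 sites and 4 to 89 reads per line, were in none of these and had 0.0% to 11.5% (median 1.85%). Sites within 1 kb of a protocadherin start, 2735 in number, had 6.91% and 6.09% in the DNMT3A lines, 5.07% and 0.905% in set a, 3.60% and 3.13% in N656I, 4.71% and 4.23% in set b, 2.09% and 1.47% in K777A, and 2.71% and 3.63% in N779A. The rest of the first exons had 15.3% and 18.5% in DNMT3A but 5.04% and 4.34% in set b and 3.10% and 2.98% in K777A. The remaining sites of the 3 groups had 26.9% and 26.9% in DNMT3A, 14.0% and 11.8% in set b and 6.22% and 5.42% in K777A. The start windows were lower than the remaining sites in 12 of 12 lines (mean difference -7.86 points, exact sign-flip permutation, adjusted p over 8 tests = 0.000977). They were also lower than the rest of the first exons in 12 of 12 lines (-2.65 points, exact permutation, same adjusted p). At equal CpG density the start windows were still lower than the remaining sites in 12 of 12 lines (-6.54 points, exact permutation, same adjusted p).

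Within 5 kb of the 58 starts as 1 set, the 500 bp just downstream were the lowest bin in the means of DNMT3A, N656I, K777A and N779A. In set b the lowest bin was 5000 to 4500 bp upstream, at 2.79% (0.437% and 5.14%), and in set a 3000 to 2500 bp upstream, at 1.44%. Some starts lie within 5 kb of each other, such as those of Pcdhgb2 at 37689859 and Pcdhga5 at 37694375. Bins far from a start can therefore hold the start or first exon of a neighbouring gene. Taken by group of genes, the bin just downstream was the lowest for DNMT3A, N656I and K777A in Pcdhg, for DNMT3A in Pcdha and for no enzyme in Pcdhb, where DNMT3A had 6.08% in it and 2.99% in the 500 bp before the start. From 0 to 500 bp after the start, where sites were 39.8 per kb, the level was 2.66% ± 0.144 in DNMT3A, 3.01% ± 0.594 in set b, 1.93% ± 0.652 in N656I, 1.65% ± 0.829 in N779A and 1.30% ± 0.156 in K777A (SD, n = 2). In this bin DNMT3A and set b differed by less than their spread. From 1000 to 1500 bp after the start, inside the first exons, DNMT3A had 23.3% ± 2.82, set b 5.55% ± 0.401 and K777A 3.65% ± 0.657. The groups of genes differed in this bin, with DNMT3A at 9.80% ± 6.61 in Pcdha, 34.5% ± 23.8 in Pcdhb and 24.5% ± 0.420 in Pcdhg, and set b at 3.34% ± 1.71, 17.0% ± 4.70 and 3.86% ± 0.215. Upstream, from 2500 to 2000 bp before the start, with 11.2 sites per kb, DNMT3A had 26.4% ± 6.78 and set b 15.5% ± 9.30. In set a the lines ran from 0.0% to 3.05% in the bin after the start and from 8.70% to 10.2% at 1000 to 1500 bp.

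**Figure D4:**
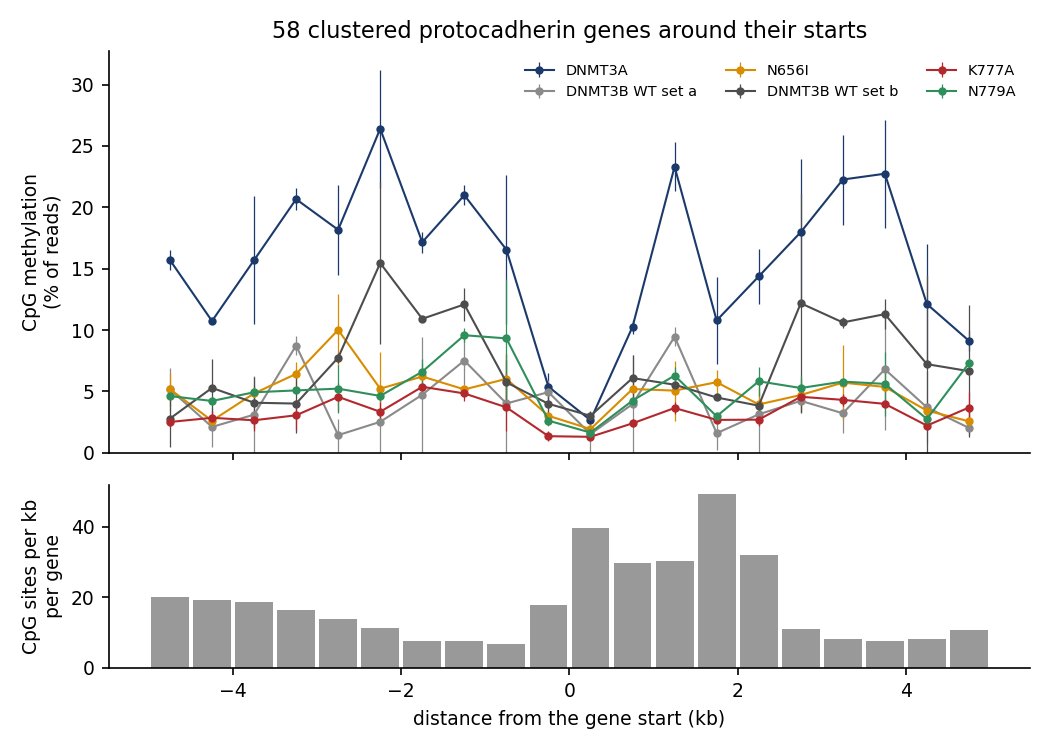
CpG methylation (percent of reads, y axis of the upper panel) in bins of 500 bp by distance from the starts of the 58 clustered protocadherin genes (kb, x axis), as the mean of 2 lines per group with bars from the lower to the higher line, and CpG sites per kb and gene below. All 6 groups are at 1.30 to 3.01% in the 500 bp after the start, and DNMT3A rises to 23.3% at 1000 to 1500 bp.

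Compared with other promoters the protocadherin starts were not low. Start windows of other protein-coding genes had 1.11% to 5.05% over the 12 lines, and the protocadherin start windows were higher in 11 of 12 lines (mean difference 1.42 points, exact sign-flip permutation, adjusted p = 0.00614). Without set a replicate 2 they were higher in 11 of 11 lines, by 1.69 points. At equal CpG density the difference was -0.776 points, with the protocadherin starts higher in 7 lines and lower in 5 (exact permutation p = 0.186). The ends of Pcdha and Pcdhg that hold the C-type isoforms were more methylated than the rest. The stretch from Pcdha1 to Pcdha12 had 11.2% and 10.7% in DNMT3A and 4.77% and 5.87% in set b, whereas the stretch after Pcdha12, which holds Pcdhac1, Pcdhac2 and the constant exons, had 22.5% and 22.2% in DNMT3A and 13.7% and 8.73% in set b. The first was lower in 11 of 12 lines (-4.74 points, exact permutation, adjusted p = 0.00156). The stretch from Pcdhga1 to Pcdhga12 was likewise lower than that after Pcdhga12, which holds Pcdhgc3, Pcdhgc4 and Pcdhgc5, in 11 of 12 lines (-4.89 points, exact permutation, adjusted p = 0.00326). In both pairs the exception was set a replicate 2. The sparsest class, 1 to 2 sites, had a median over lines of 5.04% before and 8.94% after Pcdha12, while the dense class had 3.20% and 0.683%.

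Gene by gene, levels at the starts were low and thinly read. With the reads of the 12 lines pooled, the 58 starts ran from 0.358% to 12.2% with a median of 3.41%, and 40 of 58 were under 5%. The enzyme groups contribute unequal shares of these reads from gene to gene, so the pooled values do not rank the genes. In a line, 16 to 36 starts had no methylated read, and in set a replicate 2 this held for 34 of the 35 starts that had reads. Only 15 genes had at least 20 reads in each of the 12 lines and 27 in each of the other 11. Of the 15, 10 also had 3 covered sites in every line and were tested: Pcdha9, Pcdha10, Pcdha11, Pcdhac1, Pcdhac2, Pcdhb1, Pcdhgb2, Pcdhgb4, Pcdhga8 and Pcdhgc5. None passed an adjusted p of 0.05 in limma in any comparison, where 0.0406% of 7383 starts passed for DNMT3A against set a and 0.0% in the other 4 comparisons. At an unadjusted p under 0.05 there were 1, 0, 3, 3 and 2 of the 10, in the order DNMT3A, N656I, K777A, N779A and the wild-type sets. Of all 7383 starts 11%, 5.74%, 4.21%, 5.27% and 6.30% had such a p, in the same order. The median log2 change of the 10 was 0.43, 0.39, -0.91, -1.85 and -0.65, beside -0.05, -0.07, -0.14, -0.14 and -0.05 over all 7383 starts.

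Pcdhgc5, the last C-type isoform of Pcdhg, has its start at 37819546. With each line weighted equally its mean of 15.1% was the highest of the 15 genes with 20 reads in every line. Its level was 26.0% and 25.0% in DNMT3A, 7.07% and 0.0% in set a, 14.3% and 5.43% in N656I, 48.9% and 33.3% in set b, 0.0% and 0.0% in K777A, and 12.1% and 8.75% in N779A. The set b lines were the highest of the 12 and the K777A lines had no methylated read. K777A had 0 of 89 and 0 of 85 reads over 26 and 27 sites. If all counts were independent, this would allow a level of up to 3.37% and 3.53%. They are not independent, since a read over several sites is counted at each of them. The set b mean of 41.1% ± 11 (SD, n = 2) was 11.9 times the mean of these limits. Because of the shared reads and the spread of set b, this ratio is not a lower bound. The change did not pass (limma adjusted p = 0.0645), and its fitted size is not given because it depends on the 0.5 reads added to each count. In the fit of the 11 lines without set a replicate 2, which is in neither group, it passed (limma adjusted p = 0.00514), and it was the only one of 11168 starts to pass (0.00895%), with 27 protocadherins tested. The methylated reads of set b lay at few sites. Replicate 1 had 23 methylated of 47 reads, at 4 of its 10 covered sites, and replicate 2 had 8 of 24, at 1 of its 8 covered sites. The pair shared 3 covered sites, with 0 of 11 methylated reads in replicate 1 and 8 of 13 in replicate 2, and no site was methylated in both. What part the choice of sites had in this difference was not tested.

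The other C-type starts were lower. Pcdhac1 had 1.36% and 15.9% in DNMT3A, 4.60% and 25.0% in set a, 4.55% and 15.1% in N656I, and 0.0% to 2.78% in the 6 lines of set b, K777A and N779A. In each of the first 3 groups 1 line was above 15% and the other under 5%. Pcdhac2 had 4.46% and 3.90% in DNMT3A and 0.0% to 5.66% in the other 10 lines. Pcdhgc3, with 119 sites the richest start, had 8.06% and 0.775% in DNMT3A and 0.0% to 2.79% in the 9 other lines with reads. Pcdhgc4 had 4.03% and 4.50% in DNMT3A and 0.0% to 8.89% in the other 10 lines. Summed over the 5 C-type starts, the level was 0.933% to 8.51% over the lines, with a median of 4.45%, against a median of 3.68% for the other 53 starts.

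Among the alternate isoforms with 20 reads in every line, Pcdha11 had the next highest mean of Pcdha, 5.34%, from 0.0% in set a replicate 2, N656I replicate 2 and N779A replicate 1 to 20.8% in DNMT3A replicate 1. Its neighbour Pcdha12 was the lowest of Pcdha, with a mean of 0.456% and 9 of 12 lines without a methylated read. In Pcdhb, Pcdhb2 had a mean of 6.94%, from 0.0% to 20.8%, Pcdhb11 3.43%, from 0.0% to 10.0%, and Pcdhb1 2.65%, from 0.0% to 7.21%. These 3 were the only Pcdhb genes with 20 reads in every line. In Pcdhg, Pcdhga8 had a mean of 4.12%, from 0.0% to 11.3%, and Pcdhga6 1.43%, from 0.0% to 6.58%. With 20 to 174 reads per line behind the values of these 7 genes, a level of 0.0% is a limit of the depth and not an absence. Only 5 single sites had 10 reads in 5 of 12 lines, the most of any site. The 3 dense ones, 140 and 143 bp after the start of Pcdhgb5 and 887 bp after that of Pcdhga12, had 0 of 90, 0 of 85 and 1 of 89 methylated reads over all lines. The 2 sparse ones, upstream of Pcdhgc4, had 4 of 73 and 6 of 73.

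**Figure D5:**
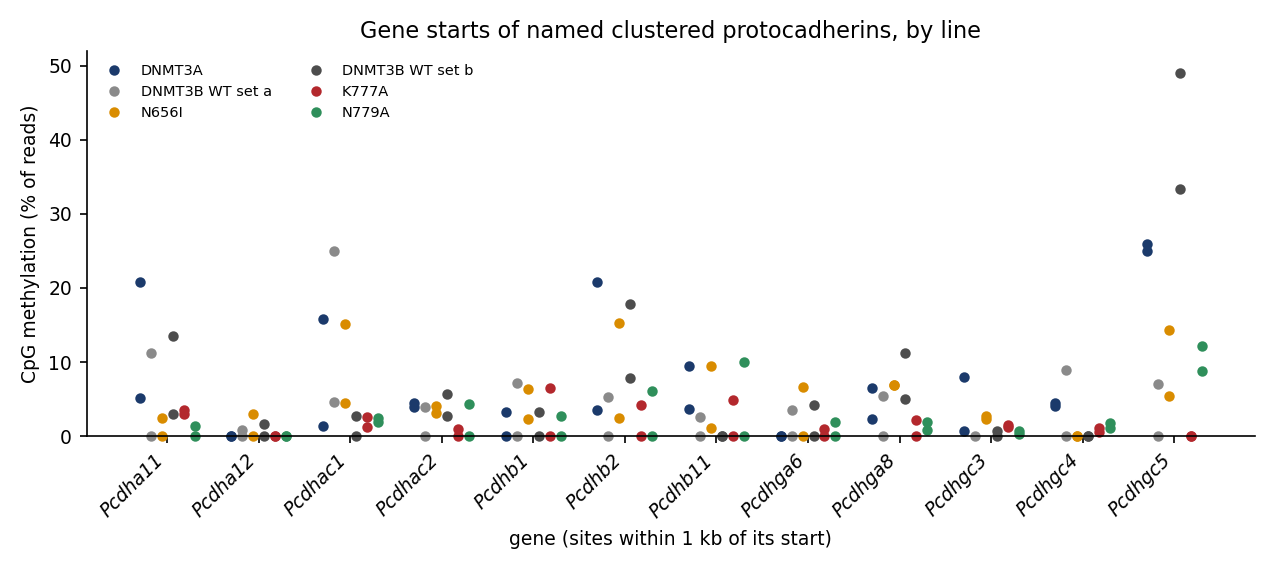
CpG methylation (percent of reads, y axis) within 1 kb of the start of 12 named clustered protocadherins (x axis), 1 point for each of the 12 lines with at least 20 reads at that start, coloured by group. Most points lie under 10%, and Pcdhgc5 stands out with 48.9% and 33.3% in wild-type DNMT3B set b and 0.0% in both K777A lines.

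The 2 other protein-coding genes of the interval differed from each other. Taf7, which encodes a subunit of the general transcription factor TFIID, had a pooled level of 0.358% at its start at 37644204 and no line above 1.56%. Slc25a2, a mitochondrial carrier gene at 37638723, had 45.5% and 32.3% in the DNMT3A lines and 0.0% to 29.4% in the others, from only 3 to 73 reads per line. The 12 non-clustered protocadherins, single genes outside the clusters, had 0.124% to 6.71% over their summed starts with a median of 1.49%. Of these, Pcdh1 and Pcdh12 lie in the 500 kb after the interval, and the other 10 had 0.195% to 5.49% with a median of 1.65%. The 8 genes whose products act on the clusters (Ctcf, Rad21, Smc1a, Smc3, Nipbl, Wapl, Smchd1 and Setdb1) had 0.569% to 4.99% over their summed starts with a median of 1.05%, against 0.905% to 6.91% and a median of 3.61% for the 58 clustered genes. The sum hides differences between the 8. With lines pooled, Rad21 had 20.2% of 277 reads and Nipbl 11.6% of 921, whereas none of the others was above 1.32%. Of the non-clustered protocadherins and these 8 genes, 3 of 12 and 4 of 8 had reads enough to be tested, and none passed in any of the 5 comparisons.

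The level inside the clusters differed with the bases beside the CpG site. Of sites whose 4 bases read the same on both strands, the interval held 719 ACGT, 794 CCGG, 981 GCGC and 678 TCGA. ACGT sites had 22.2% and 25.0% in DNMT3A, 8.18% and 7.31% in set b, and 9.25% and 8.84% in K777A. CCGG sites had 18.0% and 21.6% in DNMT3A, 13.7% and 11.4% in set b, but 1.87% and 0.877% in K777A. K777A was thus under set b at CCGG sites and just above it at ACGT sites, the only one of the 4 contexts where it was higher. ACGT minus CCGG was -5.52 and -4.10 points in set b, -11.5 and -11.8 in set a, -9.16 and -7.05 in N656I, 7.37 and 7.96 in K777A, 4.13 and 3.40 in DNMT3A, and -4.08 and 1.32 in N779A. Both K777A lines and both DNMT3A lines had the opposite sign to both wild-type sets and N656I (K777A against set b, exact permutation p = 0.333, the smallest possible). The same lines had the same signs in the flanks and over the genome, where the difference was 6.40 and 4.87 points in DNMT3A, 11.2 and 13.8 in K777A and -15.5 to -7.39 in the 6 lines of set a, N656I and set b.

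GCGC was the lowest of the 4 contexts in both set b lines, at 1.76% and 3.27%, and it had 14.4% and 12.5% in DNMT3A and 1.89% and 1.58% in K777A. It was also the richest in the interval, at 8.80% of sites against 6.44% in the flanks and 5.11% in the genome. TCGA sites had 20.1% and 13.7% in set b, 14.0% and 1.16% in set a, 13.3% and 5.57% in N656I, 13.9% and 12.1% in DNMT3A, 5.38% and 4.03% in K777A, and 8.47% and 7.08% in N779A. In the flanks TCGA had 25.4% and 21.5% in set b and 31.2% and 33.8% in DNMT3A. ACGT and CCGG in the flanks had 13.0% and 13.7% against 1.05% and 1.22% in K777A, and in both K777A lines ACGT was the highest and CCGG the lowest of the 4 in both places. Not every group had the same order in both. CCGG was the highest in the interval but TCGA in the flanks in both lines of set a and of N656I, and in both DNMT3A lines TCGA was the lowest in the interval but GCGC in the flanks. These differences between the places were not tested.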

How the data were processed

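CpG methylation was measured by enhanced reduced representation bisulfite sequencing (digestion with MspI, BfaI and MseI) in 12 lines, 2 in each of 6 groups. The deposited table gives, per line and CpG site of mm10 (GRCm38), counts of methylated reads and of all reads, which the authors made with Bismark, and replicates were not pooled. The submitters' processing notes name cutadapt 1.12, Bowtie 1.2 and Bismark 0.18.1. The strands were collapsed, overlapping read ends were counted once, and reads with 3 or more methylated non-CpG cytosines were discarded. Removal of PCR duplicates is not given in the sources used here, so read counts are not counts of molecules and intervals cover counting error only. A read over several sites is counted at each of them, which the intervals do not allow for.

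Levels were summed over all covered sites of a region in Python 3.11.15 (numpy, pandas, scipy). Flanks were the 500 kb on each side. Differences within lines were tested with an exact two-sided sign-flip permutation test over the 12 lines, and differences between groups with an exact permutation test of 2 lines against 2. Tiles of 10 kb, gene starts (1 kb on each side) and 920-kb windows were fitted over the whole genome with limma 3.58.1 in R 4.3.3. The fit took all 12 lines and the log2 odds with 0.5 added to both counts, centred on each line's median. It took features with at least 20 reads and 3 covered sites in each line, with the Benjamini-Hochberg threshold at 0.05. The labels call the lines biological replicates, and p-values measure the spread between these lines. The lines share the TKO background and fall in 6 groups, so they are not 12 independent cultures of 1 condition. The fit was tested on simulated data with known changes, of which almost none passed at single tiles and starts, and at 920-kb windows few of the smaller size but most of the larger, so a feature that did not pass is not shown to be unchanged.

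Members, gene lists and tests were chosen with earlier results of these data known. Genes were named by rule: with 20 reads at the start in every line, the 2 highest and 2 lowest means of each gene group, the 5 C-type genes, genes that passed a test, and the other protein-coding genes of the interval. Tiles were the 2 highest and 2 lowest. The fit of 920-kb windows, the tests by density class and of 8 differences between elements, the fit of 11 lines, each flank alone and the density-weighted window rank were added after the data were seen. RefSeq annotation of GRCm38.p6 gave gene positions, with 3 read-through models left out.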

Additional observations from a re-analysis of the deposited data

Results flagged for a closer look

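Differences between the groups of genes went opposite ways in N779A and in 4 other groups of lines. Pcdha minus Pcdhb was -0.824 points in N779A (mean of 2 lines, both below 0), whereas both lines were above 0 in these 4 groups. In N656I the lines went opposite ways, at -2.20 and 0.950 points. The gap between groups was 3.28 points for DNMT3A (mean 2.46), 2.06 points for wild-type DNMT3B set a (mean 1.24), 2.84 points for set b (mean 2.02) and 1.75 points for K777A (mean 0.929). The set a mean joins 0.464 points in replicate 1 and 2.01 in replicate 2, the library that stood apart. Exact permutation tests of these 4 differences between groups each gave p = 0.333, the smallest that 2 lines against 2 allow.

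ACGT minus CCGG inside the interval also split the groups by sign in every line, except in N779A, where the lines went opposite ways. The split was not particular to the interval, since these lines had the same signs over the genome (6.40 and 4.87 points in DNMT3A, 11.2 and 13.8 in K777A, and -15.5 to -7.39 in the wild-type and N656I lines). DNMT3A (mean 3.77 points) lay 15.4 points above set a (mean -11.6), 11.9 points above N656I (mean -8.10) and 8.58 points above set b (mean -4.81). Against K777A (mean 7.67 points), the difference was -19.3 points in set a, -15.8 points in N656I and -12.5 points in set b. The exact permutation p was again 0.333 in each case. Groups of 2 lines are too small for a test of single outlying lines.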

How the results depend on the processing

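Of 241 alternative values, 218 kept their direction and their side of the threshold, or for counts stayed within 1.5 times. The gap between interval and flanks kept both in every alternative except at the 12 sites covered in all lines (-2.87 points, exact p = 0.155), and without single lines it ran from -6.01 to -5.02, or from -5.33 to -4.48 at the same density. N656I minus set a was -0.363 points with each site counted once, -1.24 at shared sites, -1.60 against set b, and -1.39 to 3.82 without single lines. N779A minus set b was 0.0868 points at shared sites and 0.859 against set a. The latter sign rests on set a replicate 2, since replicate 1, at 7.37%, lay above both N779A lines (5.32% and 5.93%). DNMT3A minus set a ran from 10.1 to 15.3 points without single lines. K777A minus set b ran from -4.44 to -3.52 points without single lines. Weighting to the same density gave 1.31 points for Pcdha minus Pcdhb, -1.60 for Pcdha minus Pcdhg and -2.91 for Pcdhb minus Pcdhg, all past the threshold. Pcdha minus Pcdhg turned to 1.76 points at sites with 10 reads and 0.440 at shared sites. Without single lines Pcdha minus Pcdhb ran from 0.592 to 1.14 (past the threshold without N656I replicate 1) and Pcdhb minus Pcdhg from -1.61 to -1.02 (past it without N656I replicate 1 or N779A replicate 1, the latter at -1.59). 

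Tiles of the interval that passed numbered 7 of 40 for DNMT3A without centring (27.5% of all tiles). Without set a replicate 1, which leaves replicate 2 alone and assumes that it varies like the other groups, they numbered 12, 11 and 12 of 41 for DNMT3A, N656I and the wild-type sets (43.0%, 42.4% and 43.4% of all tiles). Over single lines left out the ranges were 0 to 12, 0 to 11 and 0 to 12 tiles. Protocadherin starts that passed went from 0 to 1 without set a replicate 1 for DNMT3A and N656I (2.05% and 0.646% of all starts). For K777A, 1 start, Pcdhgc5, passed without centring (0.0135%) and in the fit of 11 lines (0.00895%). The cause of these changes was not tested. With the replicate block the count stayed at 0 tiles and 0 starts in each comparison. The labels give numbers that mark no shared culture, and lines of the same number did not deviate together over tiles (15 pairs, r from -0.0102 to 0.00847). Depth limits what single starts and tiles can show.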
